A study of Rattus norvegicus with 8 samples.

Results

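The genes described here encode voltage-gated and potassium ion channels of the rat and their auxiliary subunits, read on 8 Affymetrix rat arrays of the U34 set at embryonic day E12.5. All probe sets were taken whose single gene symbol began with Kcn, with Scn and a digit, with Cacn, or with Hcn and a digit. The rule used names and no measured value. It found 78 of the 4736 genes that a probe set with a single symbol names, and 125 of the 8799 probe sets: 82 probe sets of 54 potassium channel genes, 17 of 10 sodium channel genes and 26 of 14 calcium channel genes. No probe set of an Hcn gene had a single symbol in the platform annotation.

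The series asked which genes act downstream of Pax6, a transcription factor of the early brain and eye. There were 4 groups of 2 arrays each: wild-type forebrain, Pax6 homozygous forebrain, wild-type hindbrain and Pax6 homozygous hindbrain, all from E12.5 embryos. Homozygous is the word of the labels for the mutant embryos, and the sources used here give neither the allele nor the strain nor how many embryos went into an array. The forebrain part was everything in front of the isthmus and so also held the midbrain and the beginnings of eye and nose. The hindbrain part was everything behind it down to the forelimbs and so also held the pharyngeal arches. Each value is therefore an average over brain and other tissue of the head, and in such bulk samples fewer cells of a type and less RNA per cell cannot be told apart. No label says that both arrays of a group stem from different litters or extracts, so a p-value here reflects only how far these arrays spread, and their small number limits the precision.

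Voltage-gated channels are membrane proteins that open when the potential across the membrane changes. Sodium channels carry the upstroke of the action potential, calcium channels couple depolarisation to transmitter release, gene transcription and contraction, and potassium channels end the action potential and hold the resting potential. Their pore-forming alpha subunits assemble with auxiliary subunits that set their traffic to the membrane and their gating. In the embryonic brain the first excitable cells are young postmitotic neurons, while the dividing progenitors around the ventricle make up much of the tissue.

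The deposited values are intensities on a linear scale that run below 0. The noise level of an array was taken as the size of the 5th percentile of its intensities and lay between 243.3 and 619.8. By that measure 16 of the 125 channel probe sets (12.8%) were above noise on all 8 arrays, against 3743 of 8740 (42.8%) among all probe sets other than array controls. Another 29 were above noise on some arrays. The remaining 80 (64.0%) were above noise on no array, against 34.2% of all probe sets. Counted per group, 29 channel probe sets (23.2%, against 56.7%) were above noise on both arrays of at least 1 group. That number was 20 in wild-type forebrain and 23 in each of the other 3 groups. Per array the share of channel probe sets above noise ran from 20.0% to 28.8%, and that of all probe sets from 48.776% to 61.236%. In genes, 16 had a probe set above noise on all 8 arrays, 22 on some and 40 on none. Most channel transcripts were thus not measured above noise in this tissue with these probe sets, which does not show that they were absent.

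**Figure D1:**
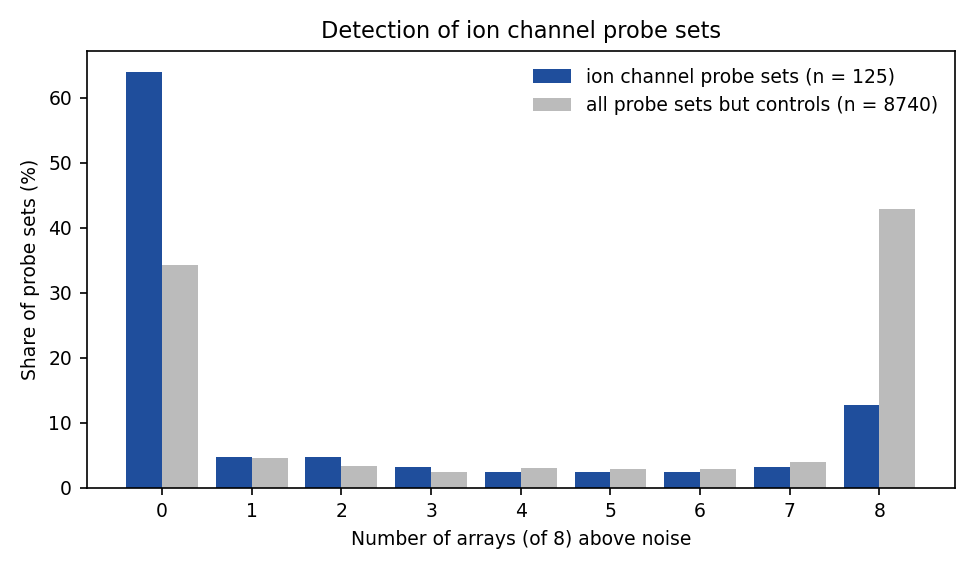
Share of probe sets (vertical axis, percent) by the number of the 8 arrays on which they were above noise (horizontal axis), for the 125 ion channel probe sets (blue) and the 8740 probe sets that are not array controls (grey). The blue bar is the higher one at 0 arrays (64.0% against 34.2%) and the lower one at 8 arrays (12.8% against 42.8%).

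The families differed in how many members were above noise, as a count with no test. Among pore subunits, 3 of 19 calcium channel, 4 of 16 sodium channel and 4 of 41 voltage-gated potassium channel probe sets were above noise on all 8 arrays. None of 22 inward rectifier and none of 4 two-pore potassium channel probe sets was above noise on all 8, though 6 and 2 of them were on some arrays. Of 9 probe sets for calcium- or sodium-activated potassium channels and their subunits, 1 was above noise on all 8 arrays. Auxiliary subunits reached 3 of 7 for calcium channels and 1 of 6 for potassium channels, and the single sodium channel beta subunit, Scn2b, was above noise on 1 array.

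The promoters of 3 genes are shown because 2 of them, Cacna2d1 and Scn3a, had the smallest unadjusted p-values of the region comparison among channels above noise, and the third, Scn2a, lies next to Scn3a on the chromosome and was above noise on no array. Each sequence is the 250 bases before the RefSeq start (assembly GRCr8), read in the direction of the gene, with the GC box GGGCGG in capitals on either strand. Cacna2d1 lies on the minus strand at chr4:20330148-20330397, Scn3a on the minus strand at chr3:70666199-70666448 and Scn2a on the plus strand at chr3:70710706-70710955.
Cacna2d1: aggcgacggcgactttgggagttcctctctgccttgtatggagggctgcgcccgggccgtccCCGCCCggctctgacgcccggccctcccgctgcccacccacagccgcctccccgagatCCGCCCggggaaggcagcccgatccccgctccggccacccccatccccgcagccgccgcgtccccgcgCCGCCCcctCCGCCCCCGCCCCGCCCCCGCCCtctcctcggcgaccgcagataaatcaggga
Scn3a: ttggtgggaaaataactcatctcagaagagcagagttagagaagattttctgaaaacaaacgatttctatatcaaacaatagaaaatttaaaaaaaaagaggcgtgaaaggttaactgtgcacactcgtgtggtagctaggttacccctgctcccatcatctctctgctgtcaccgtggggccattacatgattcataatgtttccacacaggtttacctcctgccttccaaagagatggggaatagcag
Scn2a: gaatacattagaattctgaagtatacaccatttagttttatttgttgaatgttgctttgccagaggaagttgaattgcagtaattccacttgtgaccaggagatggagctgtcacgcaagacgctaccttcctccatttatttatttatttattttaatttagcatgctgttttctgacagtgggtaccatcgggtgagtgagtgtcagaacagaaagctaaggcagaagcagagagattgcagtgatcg
The Cacna2d1 window held 7 GC boxes, overlapping ones counted, and 77.2% of its bases were G or C. Both sodium channel windows held no GC box, with 41.6% G or C at Scn3a and 39.6% at Scn2a. RefSeq gave such a window for 58 of the 78 genes. A GC box on either strand was in 28 of these 58 (48.276%), against 32.385% of all 27457 promoters of the same length. It was in 5 of 11 windows of genes above noise on all 8 arrays, in 6 of 16 of those above noise on some arrays and in 17 of 31 of those above noise on none. The promoters of channel genes above noise thus held it no more often, by count, than those of channel genes that were not.

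Among potassium channels, Kcnh3 encodes an ether-a-go-go-like (Elk) alpha subunit. Its probe set AJ007627_at gave 3328 and 3996 in wild-type and 5089 and 3287 in Pax6 homozygous forebrain, and 5025 and 3015 in wild-type and 3848 and 3673 in Pax6 homozygous hindbrain. All 8 values were at least 6.04 times the noise of their own array, and the 4 groups overlapped. A second Kcnh3 probe set, AF073892_s_at, was negative on every array, from -2368 to -695, so the 2 probe sets of this gene do not give the same reading. Kcnh4, another Elk subunit, read 674 and 820.5 in wild-type and 886 and 432 in Pax6 homozygous forebrain, and 1111 and 488 in wild-type and 899 and 577 in Pax6 homozygous hindbrain (AJ007628_at). Kcnh2, the ERG channel best known from cardiac repolarisation, lay between 702 and 1114 with overlapping groups (U75210_s_at). Kcnq3, a subunit of the M-current that damps repetitive firing, lay between 403 and 863 (AF091247_s_at).

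Subunits that join potassium channels were read as well. Kcnab2, a beta subunit of Kv1 channels, gave 1500.5 and 775 in wild-type and 1466 and 758 in Pax6 homozygous forebrain, and 1939 and 733 in wild-type and 1175 and 880.1 in Pax6 homozygous hindbrain (rc_H33656_at). In 3 of the 4 groups the pair of Kcnab2 arrays stood further apart than any of the 4 group means. Kcnmb1, the beta subunit of the large-conductance calcium-activated channel of smooth muscle, gave 834 and 384 in wild-type and 1034 and 663 in Pax6 homozygous forebrain, and 1344 and 869.8 in wild-type and 1316 and 1002 in Pax6 homozygous hindbrain (AF020712_at). The pore subunit that Kcnmb1 joins, Kcnma1, was above noise on no array with any of its 4 probe sets. Among the Kv1 alpha subunits, which such beta subunits join, Kcna1, Kcna2 and Kcna3 were above noise nowhere. Kcna4, an A-type channel, was above noise on 7 arrays, between 107 and 785 (X16002cds_s_at), and on none with M32867_at.

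Sodium channel alpha subunits split in the same way. Scn3a, the alpha subunit known for its embryonic expression in brain, gave 1551 and 1106 in wild-type and 1714 and 1383 in Pax6 homozygous forebrain, and 2336 and 2059.6 in wild-type and 1726 and 1768 in Pax6 homozygous hindbrain (Y00766_g_at). Every hindbrain value was above every forebrain value. Its other probe set, Y00766_at, was above noise nowhere. Scn1a and Scn2a, main alpha subunits of the mature brain, were above noise on no array, with values from 43.3 to 184.0 (M22253_at) and from -141.0 to 82.0 (M22254_at).

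Scn8a, which gathers at the initial segment and nodes of axons, gave 700.2 and 478 in wild-type and 632 and 587 in Pax6 homozygous forebrain, and 1027 and 555 in wild-type and 533 and 664 in Pax6 homozygous hindbrain (L39018_at). Scn9a, prominent in sensory and sympathetic ganglia, was above noise on 7 arrays, between 395 and 674 (U79568_s_at). Scn7a, the sodium-sensing channel that does not open with voltage, lay between 968 and 1553 (S75991_at). Scn4a, the skeletal muscle sodium channel, ranged from 295 to 1544 (M26643_g_at), and both of these values came from the 2 arrays of wild-type hindbrain. Scn3a and Scn2a follow each other on rat chromosome 3 with 0 protein-coding genes between them in RefSeq, as do Scn1a and Scn9a, and Scn9a and Scn7a. Direct neighbours in this cluster thus stood on both sides of the noise level.

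Among calcium channels, Cacna2d1, the alpha-2-delta subunit that carries calcium channels to the membrane and is the target of gabapentin, gave 1636 and 1427 in wild-type and 1477 and 1406 in Pax6 homozygous forebrain, and 3108 and 2243 in wild-type and 2652 and 1766 in Pax6 homozygous hindbrain (M86621_at). The 4 hindbrain values were all above the 4 forebrain values, and the 2 genotypes overlapped in hindbrain. Cacnb3, a cytoplasmic beta subunit, lay between 801 and 2383 (M88751_at). The beta subunit genes Cacnb1 and Cacnb2 were above noise on 3 arrays and on 1, and Cacnb4 on none. Cacng1, the gamma subunit of the skeletal muscle calcium channel, lay between 544 and 1222 (Y09453cds_at).

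Pore subunits of L-type, N-type and T-type calcium channels were above noise on all 8 arrays with 1 probe set each of Cacna1c, Cacna1b and Cacna1g. The other probe sets of Cacna1c (U31815_s_at and M89924cds_s_at) and Cacna1b (M92905_s_at) were above noise nowhere. Cacna1g, a low-threshold T-type channel, gave 1741 and 1014 in wild-type and 1657 and 1272 in Pax6 homozygous forebrain, and 1438 and 1206 in wild-type and 1491 and 1425 in Pax6 homozygous hindbrain (AF027984_at). Cacna1c, an L-type channel, gave 1062 and 358 in wild-type and 1162 and 753 in Pax6 homozygous forebrain, and 1247 and 731 in wild-type and 1324 and 1317 in Pax6 homozygous hindbrain (M59786_at). Cacna1b, the N-type channel of nerve endings, gave 784 and 536 in wild-type and 606 and 563 in Pax6 homozygous forebrain, and 1105 and 625 in wild-type and 596 and 525 in Pax6 homozygous hindbrain (AF055477_at). In none of these 3 genes did all forebrain arrays lie on one side of all hindbrain arrays. The L-type gene Cacna1d was above noise nowhere with 5 probe sets, and Cacna1s, the L-type channel of skeletal muscle, was below minus the noise level on all 8 arrays with 1 of its probe sets (L04684_at, from -1932 to -522).

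**Figure D2:**
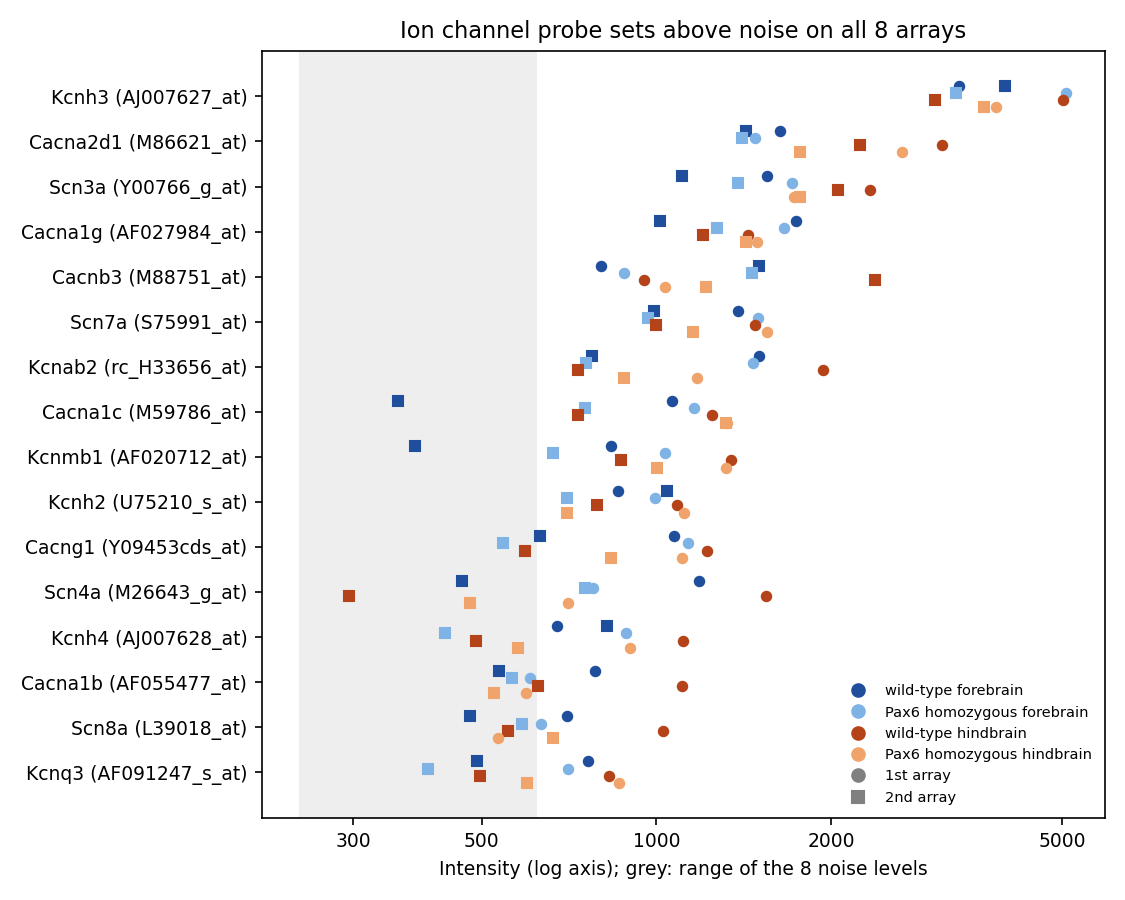
Intensity (horizontal log axis) of the 16 ion channel probe sets above noise on all 8 arrays, 1 line per probe set, with points for arrays coloured by group, circles for the 1st and squares for the 2nd array. The grey band spans the 8 noise levels (243.3 to 619.8); each array is judged against its own level, and the vertical order of probe sets is not an order of expression, since probe sets bind with unequal strength. Only for Cacna2d1 and Scn3a do all hindbrain points (red and orange) lie to the right of all forebrain points (blue).

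Several probe sets for 1 gene often gave unlike readings. There were 33 channel genes with more than 1 probe set, and all probe sets were below noise throughout in 12 of them. In 9 genes (Cacna1b, Cacna1c, Kcnh2, Kcnh3, Kcnq3, Scn3a, Scn4a, Scn7a and Scn8a) 1 probe set was above noise on all 8 arrays and another on none. In 0 of the 33 genes were all probe sets above noise on all 8 arrays. Of the 16 channel genes above noise on all 8 arrays, 5 had a single probe set. Of the 125 channel probe sets 6 (4.8%, against 2.13% of all) were below minus the noise level on all 8 arrays, among them 1 each of Kcnh3, Kcnk3, Kcnd3 and Kcnj11, which held the lowest channel value, -2609.7 (D86039_g_at). Probe sets of closely related channels, above all those whose names end in _s_at, can also bind transcripts of their paralogs, so the gene behind a reading is uncertain where readings of a gene disagree. Being above noise need not mean that a transcript was there: the lens fibre gene Mip was above noise on all 8 arrays, hindbrain included, at 880.4 to 1862.4 (X53052cds_at).

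**Figure D3:**
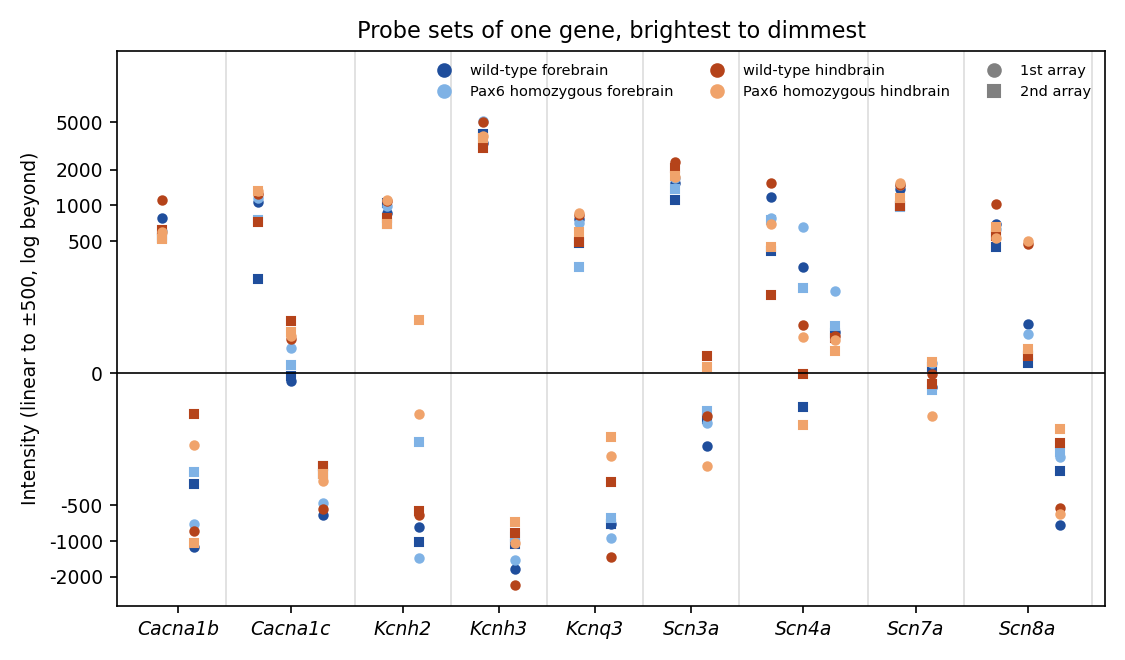
Intensities (vertical axis, linear between -500 and 500 and logarithmic beyond) of all probe sets of the 9 channel genes that had 1 probe set above noise on all 8 arrays and another above noise on none. Each column of points is 1 probe set with its 8 arrays, ordered within a gene from bright to dim; for Kcnh3 the 2 columns lie between 3015 and 5089 and between -2368 and -695.

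Region and genotype were compared in 1 limma model over 5881 probe sets, of which 49 were channel probe sets from 41 genes; the other 76 were too dim to be tested. The targeted gene, Pax6, had 1 probe set above noise on all 8 arrays, with 1197 and 636 in wild-type and 1243 and 927 in Pax6 homozygous forebrain, and 827 and 531 in wild-type and 1194 and 1111 in Pax6 homozygous hindbrain. Its mean in Pax6 homozygous arrays was not below that in wild-type arrays in either part, and no source used here says whether the probe set lies in a stretch that the allele alters, so it does not check the genotype labels. Of the 49 channel probe sets, 0 passed a Benjamini-Hochberg adjusted p of 0.05 in any of the 5 comparisons. An effect has to be large to pass with so few arrays: for the 16 probe sets above noise throughout, the median standard error was 0.46 on the log2 scale for genotype in 1 region and 0.33 for region.

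The comparison of regions asked which channels were higher in the forebrain or the hindbrain part. None of the 49 tested passed, against 1.51% of all probe sets tested (89, of which 0.289% higher and 1.22% lower in forebrain). At an unadjusted limma p under 0.05 there were 2 (4.08%, against 8.09%), Cacna2d1 and Scn3a, both lower in forebrain. Cacna2d1 averaged 1486 ± 104 in forebrain and 2442 ± 573 in hindbrain (SD, n = 4), a difference of -0.69 ± 0.21 on the log2 scale (SE; 95% interval -1.16 to -0.21; limma adjusted p = 0.262). Scn3a averaged 1438 ± 260 in forebrain and 1972 ± 285 in hindbrain (SD, n = 4), a log2 difference of -0.46 ± 0.20 (95% interval -0.91 to -0.01; limma adjusted p = 0.603). Neither passed. For both, every hindbrain value was above every forebrain value, which held for 4.37% of all probe sets tested. For Scn3a the gap was narrow, between 1714.4 (highest forebrain value) and 1725.8 (lowest hindbrain value). The separation of both rests on the same 8 values as the p-values by which both genes were singled out. It therefore adds no separate support. Over 14 alternative ways of processing, Cacna2d1 stayed between -0.83 and -0.54 (limma adjusted p from 0.0684 to 0.668) and Scn3a between -0.59 and -0.34 (0.247 to 0.989).

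Few other channels separated the regions. Groups did not overlap, hindbrain above forebrain, for 4 tested channel probe sets (8.16%, against 4.37% of all tested), and for 0 the other way (against 2.28%). Beside Cacna2d1 and Scn3a these were Kcng1, a modifying subunit that is silent by itself, and Kcnj8, the pore of an ATP-sensitive channel, both named after their values were seen. Kcng1 read from 251 to 418 in forebrain and from 459.5 to 617 in hindbrain, with 3 arrays above noise, all of hindbrain, and Kcnj8 was above noise nowhere. Kcnmb1 averaged 729 ± 275 in forebrain and 1133 ± 234 in hindbrain (SD, n = 4; log2 difference -0.70 ± 0.34, limma adjusted p = 0.661). Cacna1a, the P/Q-type channel of nerve endings, averaged 550.0 ± 308 in forebrain and 818 ± 282 in hindbrain (rc_AI229031_s_at, log2 difference -0.70 ± 0.47, limma adjusted p = 0.854). The further tested probe sets of both genes did not follow. Kcnmb1 AB010963_s_at, above noise on 4 arrays, averaged 438 ± 282 in forebrain and 408 ± 312 in hindbrain (SD, n = 4; 0.07 ± 0.66). For Cacna1a, AF051526_at and M99222_s_at, above noise on 4 and 3 arrays, had estimates of the opposite sign, 0.35 ± 0.42 and 0.29 ± 0.73, and AF051527_s_at was above noise nowhere.

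Channels with a positive estimate and a signal above noise on all 4 forebrain arrays were within 2 standard errors of 0. Kcna4 differed by 0.52 ± 0.57, the two-pore channel gene Kcnk5 by 0.48 ± 0.42, Scn4a by 0.27 ± 0.54 (M26643_g_at) and Kcnh3 by 0.01 ± 0.21 on the log2 scale (limma adjusted p from 0.922 to 0.999), and the sign turned for Kcna4 with a higher floor and for Kcna4, Scn4a and Kcnh3 when single arrays were left out. A second Scn4a probe set, above noise on 2 arrays, both of Pax6 homozygous forebrain, had an estimate of 1.55 ± 0.90 (D87922exon_at, limma adjusted p = 0.787). Of all probe sets above noise throughout, 50.3% had a positive estimate, with a median of 0.00. Of the 16 channel probe sets among them, 13 had a negative and 3 a positive estimate, with a median of -0.16. When same-numbered arrays were set side by side, hindbrain was above forebrain in 4 of 4 pairs for 6 of these 16 (37.5%, against 11.034% of 3743). These were Cacna2d1 (1.26- to 1.90-fold), Cacna1c (1.14- to 2.04-fold), Kcnmb1 (1.27- to 2.27-fold), Kcnq3 (1.01- to 1.49-fold), Scn3a (1.01- to 1.86-fold) and Scn7a (1.01- to 1.20-fold). The arrays share no source by label beyond their number. The 16 channel probe sets had a median level of 962.6, against 3048.0 for the 3743, so the 2 sets compared here are not equally bright.

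Markers of neurons and of muscle differed between the same parts. Of 14 neuronal marker genes 9 were on the array with 21 probe sets, 11 of them above noise on all 8 arrays and 4 on none; 17 were tested and 5 passed, all higher in hindbrain, and the summed intensity of the list, with negative values at 0, was 36345 to 40301 in forebrain and 83372 to 119927 in hindbrain. All 5 belong to intermediate filament genes of neurons (Nefl, Nefm and Ina). The other 16 probe sets summed to 22063 to 24858 in forebrain and 27558 to 38423 in hindbrain, with region estimates from -0.89 to 0.09. Map2 (U30938_at, 0.02 ± 0.18) and Mapt (rc_AA957930_s_at, -0.13 ± 0.16) each had a probe set near 0, but not all their probe sets were. Mapt also had -0.43 ± 0.21 (rc_AI227608_s_at) and -0.89 ± 1.33 (X79321_at). Map2 also had 0.09 ± 0.38 (S74265_s_at), -0.18 ± 0.37 (X53455cds_s_at) and -0.62 ± 0.44 (X17682_s_at). The neurofilament gene Nefl read 1890.3 to 2953 in forebrain and 12095.6 to 18581 in hindbrain (AF031880_at, log2 difference -2.61, limma adjusted p = 6.31e-05). Of 12 skeletal muscle genes 10 were measured with 14 probe sets, 2 of them above noise on all 8 arrays and 1 on none; 3 of 13 tested probe sets passed, all higher in hindbrain, and the sum was 3577 to 6988 in forebrain and 16269 to 20866 in hindbrain. Acta1, skeletal alpha-actin, read 41 to 367 in forebrain and 1773 to 2296.5 in hindbrain (J00692_at, log2 difference -4.28, limma adjusted p = 0.0103). The part of either cell type in the values of Cacna2d1, Scn3a and Kcnmb1 was not tested. The means of the muscle channel genes Scn4a (M26643_g_at) and Cacng1 were 794 ± 297 and 845 ± 301 in forebrain and 755 ± 552 and 939 ± 282 in hindbrain (SD, n = 4). Their relation to the muscle markers was not tested.

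**Figure D4:**
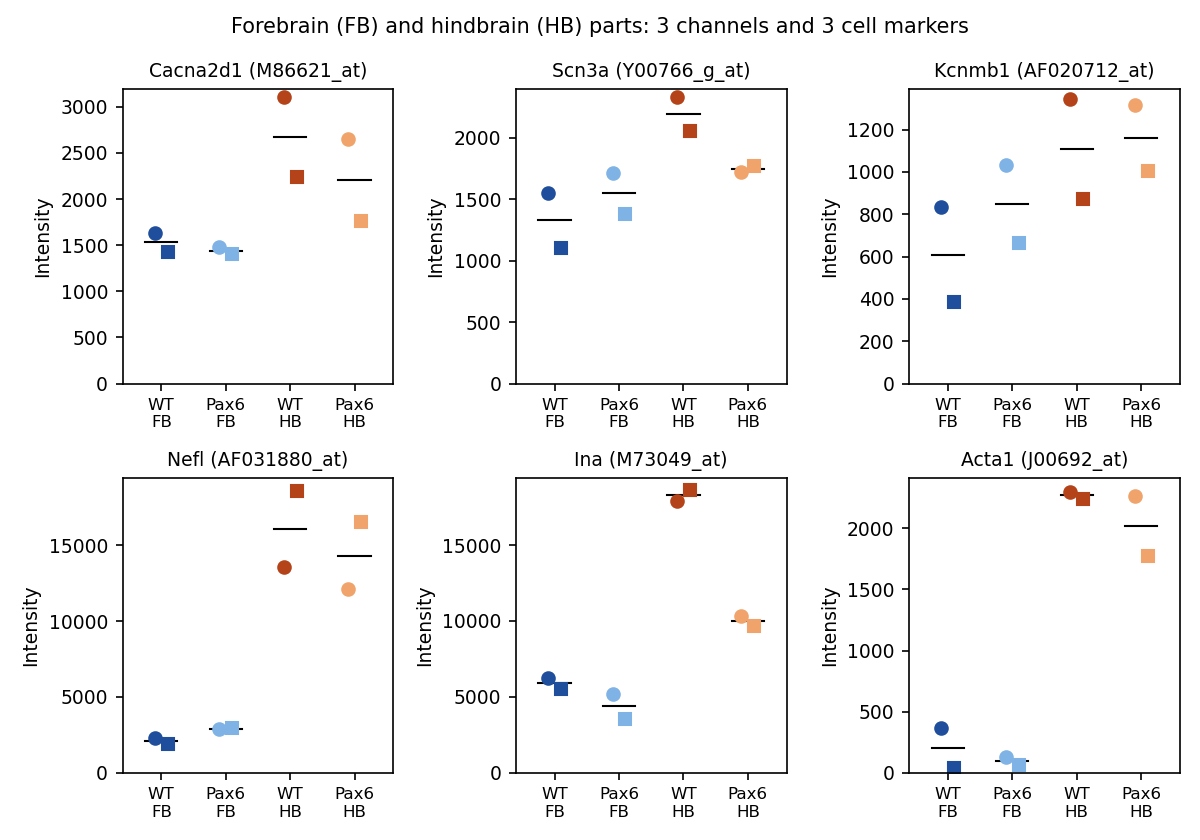
Intensity (vertical linear axis from 0) on each array of Cacna2d1, Scn3a and Kcnmb1 and of the markers Nefl and Ina (neurons) and Acta1 (skeletal muscle), by genotype in the forebrain (FB) and hindbrain (HB) parts; circles are 1st arrays, squares 2nd arrays and lines group means. All hindbrain points lie above all forebrain points for Cacna2d1, with 1766.3 lowest against 1635.6 highest, and for Scn3a, with 1725.8 against 1714.4. Their log2 means differ by 1.61- and 1.38-fold. Acta1 ranges from 41 to 367 in forebrain and from 1773 to 2296.5 in hindbrain.

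Genotype in forebrain compared the 2 Pax6 homozygous with the 2 wild-type arrays of that part. Of the 49 channel probe sets 0 passed (smallest limma adjusted p = 1; 0.017% of all passed), 0 had an unadjusted p under 0.05 (2.92% of all), and 27 had a positive and 22 a negative estimate. The 16 above noise throughout had estimates from -0.27 to 0.60 on the log2 scale. Cacna1e, the R-type calcium channel, read -301 and 396 in wild-type and 602 and 423 in Pax6 homozygous forebrain (L15453_at, log2 difference 1.90 ± 0.98). Kcnj1, an inward rectifier of the ROMK type, read -57.1 and 437 against 815 and 389.9 (S78154_at, 1.99 ± 1.03). In both genes 1 of the 2 wild-type arrays was below 0, and for Kcnj1 the groups overlapped. The T-type gene Cacna1h read 566 and 151 in wild-type and 587 and 501 in Pax6 homozygous forebrain (rc_AA859584_at, 0.89 ± 0.65), and the second Scn4a probe set 400.4 and -129 against 657 and 323 (D87922exon_at, 1.77 ± 1.27). These sizes depended on the processing and on single arrays: over the alternatives Cacna1e ran from 0.14 to 4.27, Kcnj1 from 0.36 to 3.62, Cacna1h from -0.06 to 1.84 and Scn4a from 0.20 to 3.54.

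Channels with a lower estimate in Pax6 homozygous forebrain were no further from 0 in terms of their errors. A second Kcnab2 probe set read 568 and 564 in wild-type and 542 and 39.8 in Pax6 homozygous forebrain (X76724_at, log2 difference -1.84 ± 1.04; -3.62 to -0.064 over the alternatives), while the first, rc_H33656_at, averaged 1138 ± 513 and 1112 ± 501 (SD, n = 2). Kcnh4, Kcnq3 and Kcnh2 differed by -0.27 ± 0.54, -0.20 ± 0.49 and -0.18 ± 0.39, and each of these signs turned when 1 array was left out. Groups did not overlap for 8 channel probe sets (16.3% of those tested, against 23% of all), 4 in each direction. All 8 tested sodium channel probe sets had a positive estimate, from 0.02 to 1.77, where 51.2% of all probe sets tested were positive. None was as large as 2 of its standard errors. Scn4a and Scn8a gave 2 probe sets each, and all were read on the same arrays, so these signs are not independent. Scn8a (M27223_at, 0.13 ± 1.34) and Scn2b (0.18 ± 1.05) were above noise on 0 forebrain arrays. The probe set with the largest estimate, Scn4a D87922exon_at, was above noise on 0 wild-type forebrain arrays. In hindbrain 2 of the 8 sodium channel probe sets were positive and 6 negative, and over both parts 3 and 5.

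Genotype in hindbrain gave 0 passes among the 49 (0.017% of all passed) and 2 unadjusted limma p under 0.05 (4.08%, against 4.49%). These were Kcnk1 and Kcnh8. Kcnk1, a weakly rectifying two-pore leak channel, read 929 and 429.9 in wild-type and 189 and 245 in Pax6 homozygous hindbrain, where 1 of 2 arrays was above noise (AF022819_at, log2 difference -1.55 ± 0.57, 95% interval -2.85 to -0.26, limma adjusted p = 0.989). In forebrain it read 511 and 437 against 389 and 252, with 1 wild-type array and 0 Pax6 homozygous arrays above noise. Wild-type values of Kcnk1 were above Pax6 homozygous values in both parts without overlap. Within a part, groups did not overlap for 23% of all probe sets tested in forebrain and 34.5% in hindbrain. Kcnh8, an Elk subunit named after its values were seen, read 408 and 571 in wild-type and -179 and 123 in Pax6 homozygous hindbrain, with 1 array of the 4 above noise (AJ007632_s_at, -2.69 ± 0.79, limma adjusted p = 0.989). No Pax6 homozygous array was above noise for Kcnh8, so the size of this estimate rests on the floor of 45.9 and no fold is given.

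Other channels in hindbrain stayed within 2 standard errors of 0. Kcnk5 read 1050.2 and 427 in wild-type and 367 and 278 in Pax6 homozygous hindbrain (rc_AA800928_at, log2 difference -1.07 ± 0.59). Kcna4 differed by -1.10 ± 0.81 and Cacna1b by -0.57 ± 0.43. In the other direction Kcnj1 read 117 and 274 in wild-type and 927 and 590.1 in Pax6 homozygous hindbrain (S78154_at, 2.05 ± 1.03), and Cacna1a 729 and 509 against 1185 and 849.6 (rc_AI229031_s_at, 0.72 ± 0.66). Its probe sets AF051526_at and M99222_s_at had estimates of -0.04 ± 0.59 and -0.66 ± 1.03. The calcium channel genes Cacna1c and Cacna1g differed by 0.47 ± 0.54 and 0.15 ± 0.34. All of these had limma adjusted p of 0.989 or above. Groups did not overlap for 13 channel probe sets (26.5%, against 34.5% of all), 4 of them higher and 9 lower in Pax6 homozygous hindbrain. The estimates were positive for 18 and negative for 31, with a median of -0.12. Of all probe sets tested 54.3% were positive, with a median of 0.04. In the same part the summed neuronal markers were 108266 to 119927 in wild-type and 83372 to 85384 in Pax6 homozygous hindbrain, of which the 2 Ina probe sets made 34374 to 35176 and 18842 to 20628. By genotype in hindbrain 0 of the 17 tested neuronal probe sets passed, with a median estimate of -0.24. Signs differed between probe sets of 1 gene. Snap25 had 0.20 ± 0.31 (AB003991_at) and -0.17 ± 0.38 (AB003991_g_at). Map2 had 0.74 ± 0.53 (S74265_s_at, above noise on 4 arrays), 0.12 ± 0.63 (X17682_s_at), -0.24 ± 0.25 (U30938_at) and -1.16 ± 0.52 (X53455cds_s_at). The part of these markers in the channel values was not tested.

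**Figure D5:**
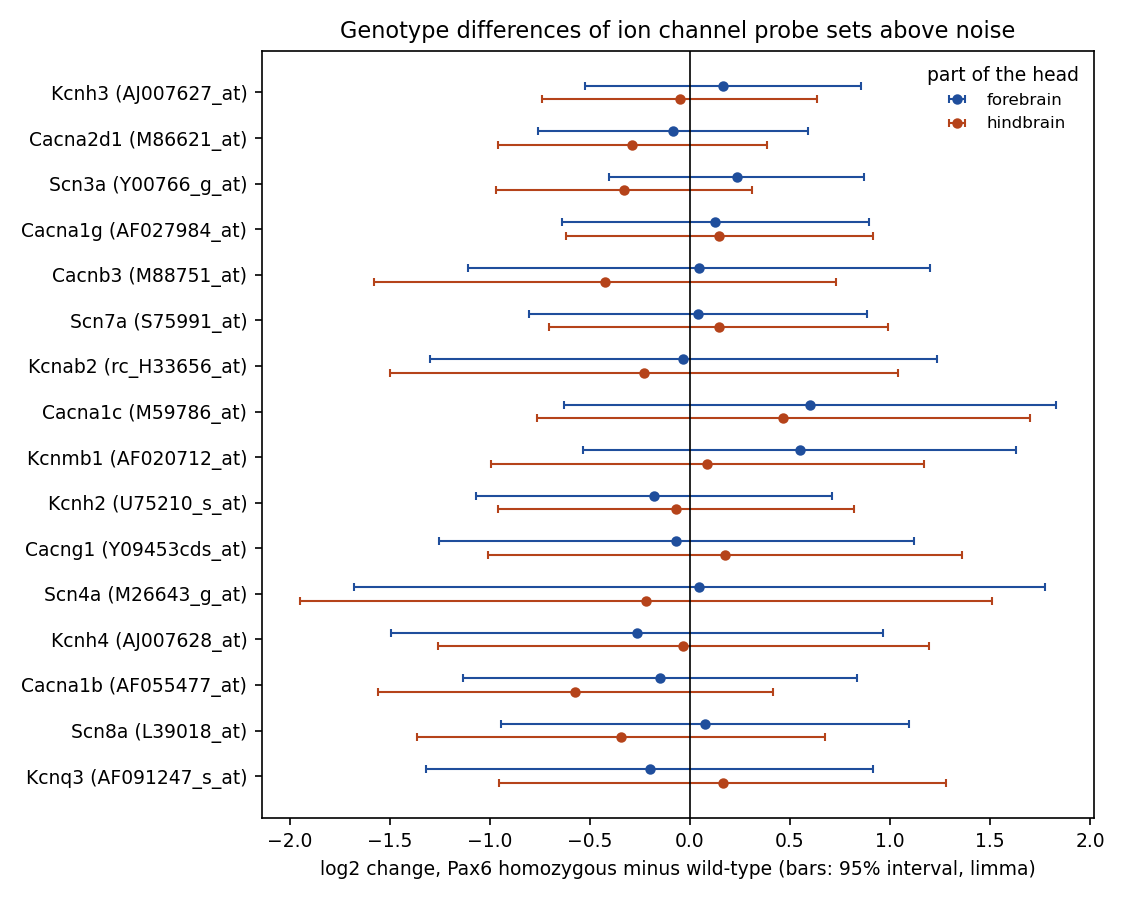
Log2 difference between Pax6 homozygous and wild-type (horizontal axis; points with 95% intervals from limma) for the 16 ion channel probe sets above noise on all 8 arrays, in forebrain (blue) and hindbrain (red). All intervals include 0, with estimates from -0.27 to 0.60 in forebrain and from -0.57 to 0.47 in hindbrain.

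Averaged over both parts, 4 arrays against 4, genotype again gave 0 passes (0.034% of all passed) and 3 unadjusted limma p under 0.05 (6.12%, against 5.02%). Kcnj1 differed by 2.02 ± 0.72 on the log2 scale (S78154_at, 95% interval 0.37 to 3.67, limma adjusted p = 0.928), and by 0.46 when the floor was set at the pooled median (497.2), above all 4 of its wild-type values. The other 2 probe sets of Kcnj1 did not follow: AF081365_s_at read 342.0 to 634.0 in wild-type and 110.0 to 580.4 in Pax6 homozygous arrays, and AF081366_s_at was above noise nowhere. Kcnk1 differed by -1.07 ± 0.40 and Kcnh8, again resting on the floor, by -1.87 ± 0.56 (limma adjusted p = 0.928 and 0.801). Those were the 2 channel probe sets without overlap between 4 wild-type and 4 Pax6 homozygous arrays (4.08%, both lower, against 1.19% of all tested, and 0 higher, against 2.38%). For Kcnh8 the gap was narrow, between 278.7 (highest Pax6 homozygous value) and 281.7 (lowest wild-type value), and 2 of its 8 arrays were above noise. Further estimates were 1.06 ± 0.69 for Cacna1e, 0.53 ± 0.38 for Cacna1c and 0.32 ± 0.34 for Kcnmb1, and -0.99 ± 0.74 for Kcnab2 (X76724_at), -0.62 ± 0.57 for Kcna4, -0.49 ± 0.42 for Kcnk5 and -0.36 ± 0.31 for Cacna1b, with limma adjusted p of 0.928 or above.

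The interaction asked whether a genotype difference was unlike in the 2 parts. It gave 0 passes among channels and 0 among all 5881 probe sets in limma, and 0 channel probe sets with an unadjusted p under 0.05 (1.9% of all). Cacna1h had the smallest unadjusted p, with a log2 difference of 0.89 ± 0.65 in forebrain and values of 555 and 728 in wild-type against 278 and 338 in Pax6 homozygous hindbrain (interaction 1.94 ± 0.92, limma adjusted p = 1). Scn3a was 0.23 ± 0.28 in forebrain and -0.33 ± 0.28 in hindbrain (interaction 0.56 ± 0.40). Cacna1e and Kcnk5 had interactions of 1.68 ± 1.38 and 1.15 ± 0.84, and Kcnab2 (X76724_at), Kcnj1 (AF081365_s_at), Cacna1a and Kcng1 had -1.72 ± 1.47, -0.95 ± 1.05, -0.93 ± 0.93 and -0.43 ± 0.71. All but that of Cacna1h were within 2 standard errors of 0, and for no channel was a genotype difference shown to be unlike in the 2 parts.

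Genes that work with the channels were no different in their calls. Of 20 genes for scaffolds and interacting proteins 14 were measured, and of their 26 probe sets 14 were tested, 8 were above noise on all 8 arrays and 0 passed in any of the 5 comparisons. Ank3, the ankyrin that holds sodium and Kcnq channels at the axon initial segment, was lower in forebrain by estimate (AF102552_s_at, log2 difference -1.07, limma adjusted p = 0.128), and so was Snap25, a protein of transmitter release that binds calcium channels (AB003991_at, -0.59, limma adjusted p = 0.431). Of 13 genes for ion pumps and exchangers 10 were measured, and of their 29 probe sets 19 were tested, 9 were above noise on all 8 arrays and 0 passed. Slc12a5, the chloride exporter of mature neurons, was above noise nowhere with U55816_at, whereas Atp1b3, a sodium pump subunit, lay between 10332 and 13335 (D84450_at). The median region difference was -0.49 for the scaffold list and -0.21 for the pump list. It was -0.10 for the 49 channel probe sets and -0.02 for all probe sets tested. The scaffold median is over probe sets and holds several of Ank3 (-1.07 to -0.56) and of Snap25 (-0.75 and -0.59). The other tested scaffold probe sets, of Cntnap1, Stx1a, Calm2, Dlg1, Dlg3 and Dlg4, lay between -0.43 and 0.16.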

How the data were processed

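Poly(A) RNA of 8 samples was converted to biotin-labelled cRNA and hybridised to 1 array each, per the labels' protocols. The authors deposited 1 linear intensity per probe set and array; the labels name neither the software nor a scaling, and no further scaling was applied here. Probe sets took their symbols from the platform annotation (7018 with 1, 308 with several, 1473 with none), and all 125 members matched a rat RefSeq gene (GRCr8) by Entrez identifier.

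From the deposited intensities, log2 values were computed after a floor at the pooled 25th percentile (45.9). A probe set entered the test when at least 2 of its values exceeded the pooled 40th percentile (255.2). The test was that of limma 3.58.1 (R 4.3.3), using lmFit and eBayes with an intensity trend, 4 group means over all 8 arrays, 4 residual and 4.63 prior degrees of freedom. P-values were two-sided and adjusted over 5881 probe sets by Benjamini-Hochberg, with a threshold of 0.05. Genotype differences are Pax6 homozygous minus wild-type, and region differences forebrain minus hindbrain. Of the members tested, 5 were above noise on no array.

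Members and gene lists were chosen with earlier results of these data known. Named with values were members above noise on all 8 arrays and, per comparison and direction, the 4 with the smallest unadjusted p among members above noise on every array of their brighter side (for the interaction, on both arrays of a group). Alternatives changed the floor, the scale (inverse hyperbolic sine), the filter, the trend, quantile normalization, the arrays in the fit, a replicate block, 1 probe set per gene, each array and the noise level.

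Besides the lists given with the results, motor neuron and ganglion genes had 2 of 9 tested probe sets and heart muscle genes 1 of 12 higher in hindbrain, neural progenitor genes 1 of 15 higher in hindbrain and 1 lower in Pax6 homozygous arrays in each genotype comparison, and blood and lens genes 0 of 7 each in any comparison.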

Additional observations from a re-analysis of the deposited data

How the results depend on the processing

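The number of channel probe sets past the threshold was 0 in each of the 5 comparisons under all alternatives run, with a smallest limma adjusted p of 0.42 and 0.425 for genotype in forebrain and hindbrain, 0.384 over both, 0.948 for the interaction and 0.0684 for region. The counts above noise moved with the noise level. With the 1st percentile 3 probe sets were above noise on all 8 arrays and 9 on both arrays of a group; with the 10th, 23 and 53; with 1 noise level for all arrays, 8 and 15. Leaving out an array gave 16 to 17 and 30 to 38. Of 40 named differences, 38 moved by over 1.5 times in size or turned under at least 1 alternative; the other 2 were those of Cacna2d1 and Scn3a by region. Of their 576 alternative values, 19 had the opposite sign. With the floor at the pooled median these were 0.041 for Kcnj1 (AF081365_s_at) and 0.17 for Kcnab2 (X76724_at) in the interaction and -0.037 for Kcna4 in region. Leaving out an array gave, for genotype in forebrain, -0.60 to 0.20 for Kcnq3, -0.78 to 0.25 for Kcnh4, -0.06 to 1.84 for Cacna1h and -0.43 to 0.074 for Kcnh2. For Kcna4 it gave -2.37 to 0.17 in hindbrain and -1.25 to 0.0205 over both parts, and for the interaction -2.02 to 0.11 for Kcnj1 and -3.50 to 0.064 for Kcnab2. For region it gave -0.17 to 0.20 for Kcnh3, -0.33 to 0.86 for Scn4a and -0.11 to 1.16 for Kcna4. With single arrays in a group, that array was assumed to vary like the others. The cause of these reversals was not tested.

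Arrays share a replicate number across groups, but no label says that a number marks a litter or batch. Deviations of same-numbered arrays correlated at 0.275 to 0.465 between groups. With the number as a replicate block, 0 channel probe sets passed in any comparison, and Cacna2d1 reached a limma adjusted p of 0.0684 for region (0.0684 to 0.668 over its alternatives); the calls among all probe sets for region were 139 in place of 89.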

Other observations

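Of the 3743 probe sets above noise throughout (median level 3048.0), 25.621% read higher on the array titled 1st than on the one titled 2nd in all 4 groups. Of the 16 channel probe sets above noise throughout, which were dimmer (median level 962.6), 10 did so (62.5%). The exceptions included Cacnb3, where the 2nd array was the higher one in all 4 groups, at 1501, 1458, 2383 and 1217 against 801, 879, 952 and 1035. The noise level was also higher on the 1st array of each group, at 551.3 against 351.7, 523.9 against 286.8, 619.8 against 270.9 and 389.2 against 243.3.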
